A study of Zea mays with 4 samples.

Results

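Alpha-tubulin transcripts of maize were followed in young internodes of a CCR mutant and of plants labelled WS. The probe sets were chosen by gene name: any probe set whose gene symbol in the array's annotation, or whose RefSeq symbol or synonym, is tua followed by a number. This gave 4 of the 1108 genes that the annotation pairs with a probe set of their own, read by 6 of the 17734 probe sets in the file: tua1 (2 probe sets), tua4 (2), tua5 (1) and tua6 (1). RefSeq, in its table for the B73 assembly Zm-B73-REFERENCE-NAM-5.0, names 6 alpha-tubulin genes, and tua2 and tua3 have no probe set paired with them in the annotation used here. The gene identifier that the array's annotation gives tua4 was not found in that table, which lists tua4 under another identifier.

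Alpha-tubulin and beta-tubulin form the dimer from which microtubules are built. In plant cells the microtubules under the plasma membrane guide the cellulose synthase complexes as they lay down the wall, and other microtubules form the spindle, the preprophase band and the phragmoplast of dividing cells. Plants carry several alpha-tubulin genes, called isotypes, whose proteins are closely alike, and internode tissue uses them both in growing cells and in cells that thicken their walls.

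The series holds 4 Affymetrix maize arrays, 1 per sample. The CCR mutant group has 2 samples, in which cinnamoyl-CoA reductase (CCR) is downregulated, the enzyme of the first step specific to the monolignol branch of lignin synthesis. They were single extracts of 144 and 182 µg RNA with no treatment recorded. The WS group has 2 samples, and no label spells out WS. Each WS sample was a pool of its own extract (185 and 215 µg RNA) with 3 other extracts of 1 µg each, and its labels also carry a drought text (36 h, REW of 20 to 30%). Genotype, pooling and recorded treatment coincide and cannot be told apart. All plants shared the same culture room and were sampled with 6 to 7 leaves. The labels do not say how many plants each sample stands for, so the spread between 2 arrays of a group may be technical.

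The probe set of cncr1, the brighter CCR gene, had log2 signals of 8.59 and 9.14 on the CCR mutant arrays, against 10.99 and 10.13 on the WS arrays (limma adjusted p = 0.68). Both CCR mutant arrays lay below both WS arrays. The secondary wall cellulose synthase genes cesa10, cesa11 and CesA12 were between 9.87 and 10.82 on all 4 arrays. Over all probe sets the arrays had medians between 6.55 and 6.60. The array carries 66 reporter probe sets, taken to be for sequences that maize lacks. Of these, 65 stayed at or below 3.43 on every array, and this level marks the background below. The remaining reporter probe set was bright, at 13.51 to 13.77 over the 4 arrays, and why was not tested. Of 11085 probe sets that reached a log2 signal of 4 on at least 2 arrays and were tested, 17 passed (0.153%), as judged by limma with Benjamini-Hochberg adjustment at 0.05.

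The alpha-tubulin signal of the internode was high in both groups, which differed by at most 0.10 on the log2 scale in any probe set. Of the 6 probe sets, 5 passed the filter on dim values, representing all 4 genes, with means between 11.67 and 13.35 on the log2 scale. None of the 5 passed the test between CCR mutant and WS. Their differences (CCR mutant minus WS) were between -0.085 and 0.10, with a median of 0.015, against a median of -0.045 over all tested probe sets. By value the CCR mutant was higher in 3 of the 5 and lower in 2, against 36.7% and 61.9% of all tested probe sets. Signals of different probe sets depend on their probes as well as on transcript number, so the order of the 4 genes by signal is not an order of their transcripts.

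**Figure D1:**
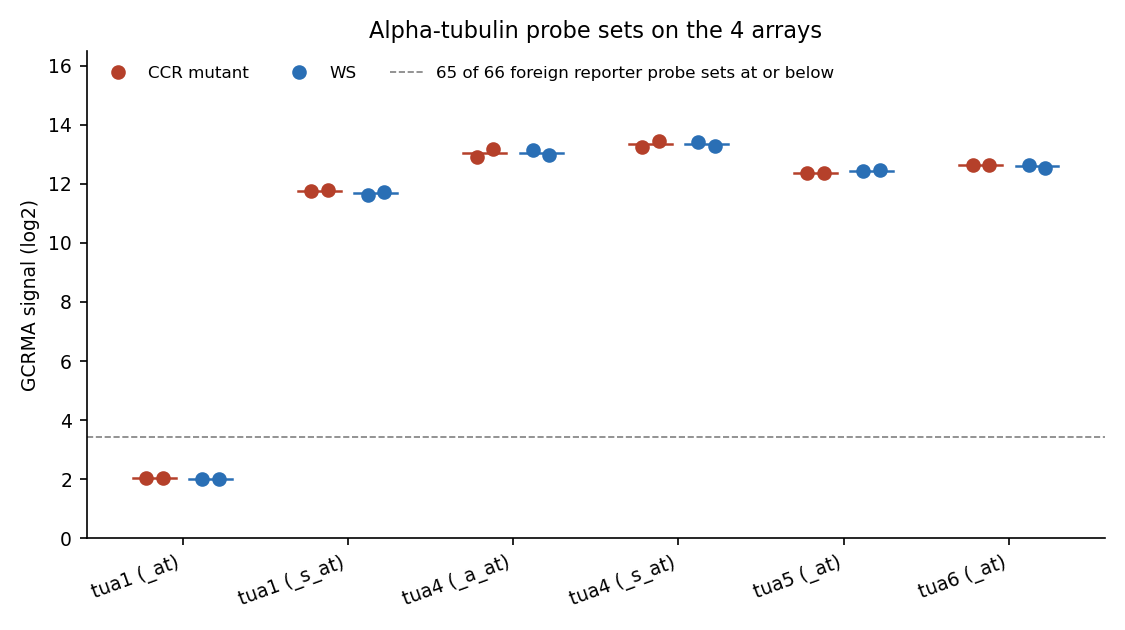
GCRMA signal on the log2 scale (vertical axis) of the 6 alpha-tubulin probe sets (horizontal axis, gene with the ending of the probe set's name). Each point is 1 array, red for CCR mutant and blue for WS, a bar marks the mean of 2 arrays, and the dashed line the level of 3.43 that 65 of 66 reporter probe sets did not exceed. The 5 bright probe sets lie between 11.63 and 13.46 on every array, and 1 probe set of tua1 lies at 2.02 to 2.04.

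The gene tua4 gave the brightest alpha-tubulin signals, on 2 probe sets. The first, whose name ends in _a_at, read 12.92 and 13.16 in CCR mutant internodes, against 13.13 and 12.98 in WS internodes. The second, ending in _s_at, read 13.24 and 13.46 in the CCR mutant and 13.41 and 13.26 in WS. The groups overlapped on both probe sets, with CCR mutant replicate 1 lowest and CCR mutant replicate 2 highest.

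For tua4 the group means were 13.04 ± 0.17 in the CCR mutant and 13.06 ± 0.11 in WS on the first probe set (SD, n = 2 each). CCR mutant minus WS came to -0.015 (SE 0.13, 95% confidence interval -0.37 to 0.34, limma adjusted p = 0.985). On the second it was 0.015 (SE 0.12, interval -0.33 to 0.36, limma adjusted p = 0.983). These intervals span signal in the CCR mutant from 0.771 to 1.27 times that in WS on the first probe set and from 0.795 to 1.28 times on the second. The 2 probe sets moved together from array to array, the second being brighter by 0.32 and 0.30 on the CCR mutant arrays and by 0.28 on both WS arrays. By Affymetrix naming, an _s_at probe set can read transcripts of more than 1 gene and an _a_at probe set several transcripts of 1 gene. Which alpha-tubulin transcripts contribute to either signal was not tested.

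The sign of the tua4 difference depended on single arrays. Without CCR mutant replicate 1 the differences were 0.105 and 0.125, and without CCR mutant replicate 2 they were -0.135 and -0.095. Without WS replicate 1 they were 0.06 and 0.09, and without WS replicate 2 they were -0.09 and -0.06. With arrays centred on their medians the first was 0.025.

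The gene tua6 read 12.64 and 12.65 in the CCR mutant, against 12.64 and 12.53 in WS. Only WS replicate 2 was below the other 3 arrays, so the groups touched. The difference was 0.06 (SE 0.08, 95% confidence interval -0.17 to 0.29, limma adjusted p = 0.891), or signal between 0.887 and 1.22 times that in WS. Without WS replicate 2 the difference was 0.005, and without WS replicate 1 it was 0.115.

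The gene tua5 read 12.35 and 12.36 in the CCR mutant, against 12.42 and 12.46 in WS. Both CCR mutant arrays lay below both WS arrays. The arrays of a group were close, with means of 12.36 ± 0.01 in the CCR mutant and 12.44 ± 0.03 in WS (SD, n = 2 each). CCR mutant minus WS came to -0.085 (SE 0.07, 95% confidence interval -0.29 to 0.12, limma adjusted p = 0.831), which places the signal between 0.817 and 1.09 times that in WS. It stayed between -0.105 and -0.065 with any 1 array left out.

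The gene tua1, known in maize for its expression in root tips and pollen, was read by 2 probe sets that disagree on its level. The probe set ending in _s_at read 11.74 and 11.80 in the CCR mutant, against 11.63 and 11.71 in WS. Both CCR mutant arrays lay above both WS arrays. The means were 11.77 ± 0.04 in the CCR mutant and 11.67 ± 0.06 in WS (SD, n = 2 each).

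For this tua1 probe set the difference was 0.10 (SE 0.08, 95% confidence interval -0.13 to 0.33, limma adjusted p = 0.823), which places the signal between 0.915 and 1.25 times that in WS. With 1 array left out it was between 0.06 and 0.14. The other probe set of tua1 read 2.04 on both CCR mutant arrays and 2.02 on both WS arrays. It stood below the background level of 3.43 on all 4 arrays, was not tested, and gives no fold.

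In the RefSeq table tua1 and tua2 are neighbours on chromosome 1 and share the older locus name GRMZM2G153292. The bright tua1 signal comes from an _s_at probe set, so a contribution of tua2 or of another alpha-tubulin gene to it was not tested. Of 5 genes listed as pollen markers, 4 (3 profilin genes and an actin-depolymerizing factor gene) were below background, at 1.90 to 2.55 in the CCR mutant and 1.87 to 2.44 in WS. The fifth, MZm3-3, known from anthers, read 12.81 and 11.60 in the CCR mutant, against 9.44 and 2.54 in WS (limma adjusted p = 0.789). Its 4 arrays span 10.27 on the log2 scale, against 0.17 for the bright tua1 probe set, and the part of anther transcripts in the tua1 values was not tested. MZm3-3 was thus above background on both CCR mutant arrays and on WS replicate 1, and below it on WS replicate 2. Another gene, ABP1, was above background on CCR mutant replicate 2 alone. It read 2.44 and 6.39 in the CCR mutant, against 2.38 and 2.40 in WS, and was not tested. ABP1 was kept in the actin cytoskeleton list and is not among the 5. The pollen list as planned also named zmabp1, and whether ABP1 is that gene was not checked.

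In 2 of the 5 tested probe sets the groups did not overlap, tua1 with the CCR mutant higher and tua5 with the CCR mutant lower. Among all tested probe sets the groups did not overlap in 36.5%, with the CCR mutant higher in 13% and lower in 23.5%. Among the 620 tested probe sets at least as bright as the dimmest tested alpha-tubulin probe set, the groups did not overlap in 27.6%. The alpha-tubulin share, 2 of 5, is near the share over all tested probe sets. With 5 probe sets it cannot be set apart from either. At an unadjusted p under 0.05 limma called 0 of the 5, against 6.43% of all tested probe sets.

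Within an array, the tua1 signal minus the tua5 signal was -0.61 and -0.56 in the CCR mutant, against -0.79 and -0.75 in WS. The 2 genes thus stood closer by 0.185 on average in the CCR mutant, with no overlap between groups. Both follow from the differences already given, 0.10 for tua1 and -0.085 for tua5, each without overlap. They add no further evidence. For tua6 minus tua5 the values were 0.29 on both CCR mutant arrays and 0.22 and 0.07 on the WS arrays. These pairs were chosen after the values were seen, so no test is given. An exact permutation test of 2 arrays against 2 could not go below a p of 0.333.

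**Figure D2:**
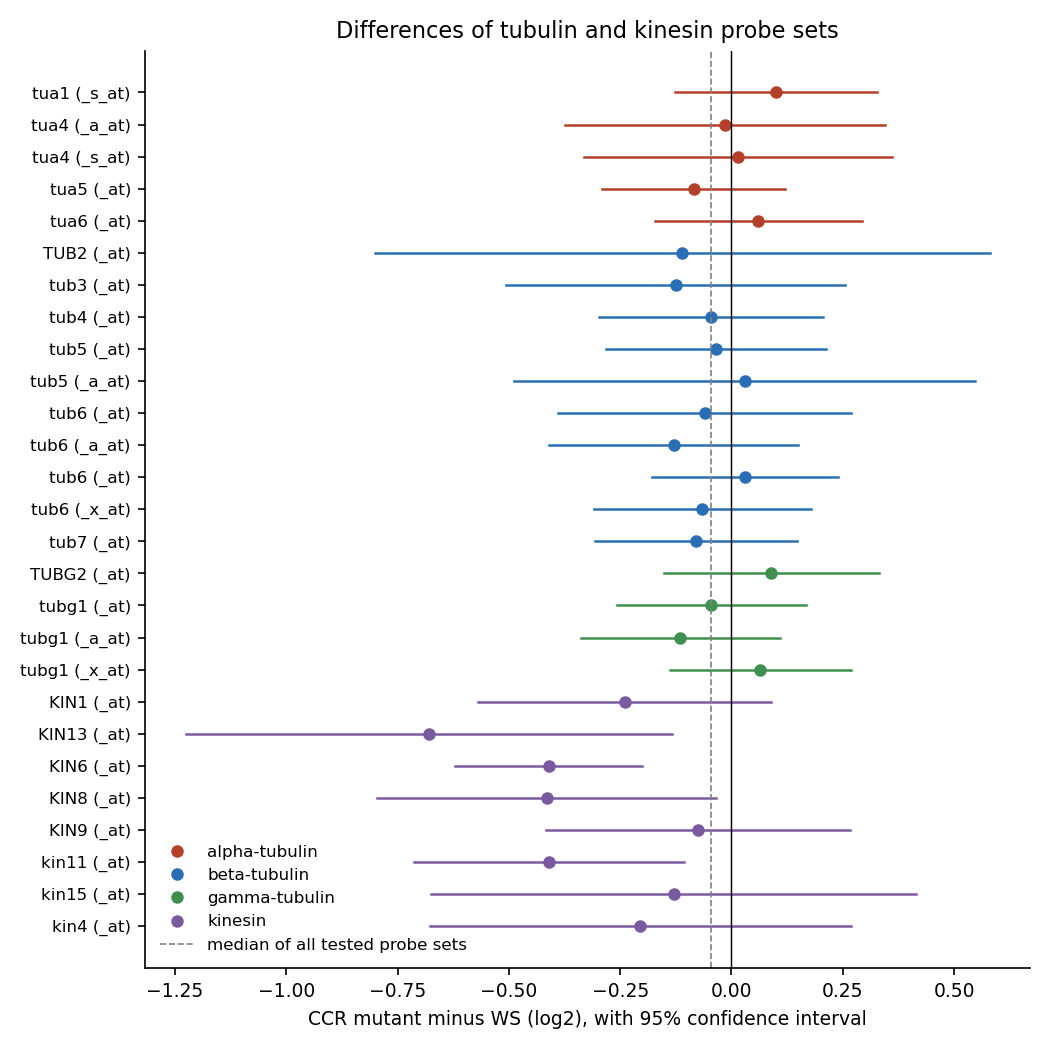
Differences on the log2 scale, CCR mutant minus WS (horizontal axis), for the tested alpha-tubulin, beta-tubulin, gamma-tubulin and kinesin probe sets (rows, gene with the ending of the probe set's name). Points are limma estimates with 2 arrays per group, bars are 95% confidence intervals, and the dashed line is the median of all tested probe sets, -0.045. Every alpha-tubulin interval includes 0. All 8 kinesin estimates lie below 0, but the intervals of KIN1, KIN9, kin15 and kin4 include it.

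Small differences were common among signals as bright as those of the alpha-tubulins. The largest of them, 0.10, was not exceeded by 49.2% of all tested probe sets in either direction. Among the 620 tested probe sets at least as bright as the dimmest tested alpha-tubulin probe set (mean 11.72), 77.1% stayed within it, and the median size of a difference was 0.05, against 0.105 over all tested probe sets. The widest range over the 4 arrays among the alpha-tubulins, 0.24 for tua4, compares with a median range of 0.16 in those 620. The 5 probe sets were brighter than between 96.0% (tua1, WS replicate 1) and 99.9% (tua4, CCR mutant replicate 2) of the probe sets on their array. Array signals this close to the top can be compressed, and to what extent that holds here was not tested.

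**Figure D3:**
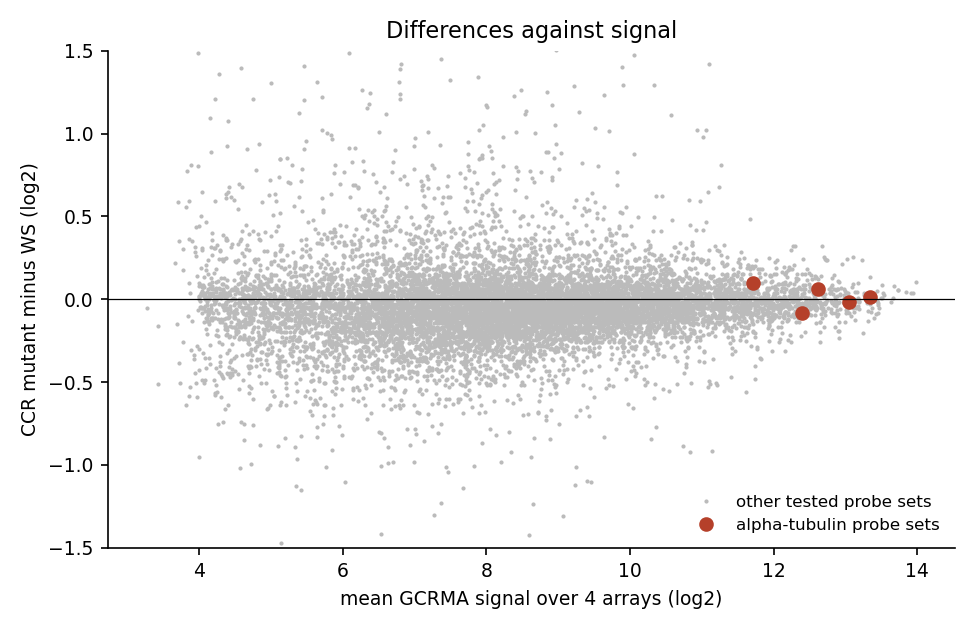
Difference on the log2 scale, CCR mutant minus WS (vertical axis), against mean signal over the 4 arrays (horizontal axis, log2) for the tested probe sets. The 5 alpha-tubulin probe sets are red. The axis ends at 1.5 in either direction, which leaves 95 probe sets outside. The spread narrows as signal increases, and the alpha-tubulins lie within it at the bright end.

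Beta-tubulins, the partners of alpha-tubulin in the dimer, were measured by 10 probe sets for 6 genes, all above the filter. Of these, 2 had higher and 8 lower values in the CCR mutant, 0 passed, and 0 had an unadjusted p under 0.05 with limma. Of all tested probe sets 61.9% were lower in the CCR mutant by value and 6.43% had such a p, so the beta-tubulin counts are near the background. Their median difference was -0.0625, and it lay between -0.1475 and 0.01 with 1 array left out. The groups were apart in 1 of the 10, tub7, against 36.5% of all tested probe sets (23.5% with the CCR mutant lower). It read 12.80 and 12.74 in the CCR mutant, against 12.89 and 12.81 in WS.

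Of the other beta-tubulins, tub6 (4 probe sets, 1 with the smallest p of the list) differed by between -0.13 and 0.03, tub3 by -0.125 (SE 0.13) and tub4 by -0.045 (SE 0.09). The 2 probe sets of tub5 differed by -0.035 and 0.03. The widest interval belonged to TUB2, which read 9.72 and 9.93 in the CCR mutant, against 10.23 and 9.64 in WS, a difference of -0.11 (95% confidence interval -0.80 to 0.58). WS replicate 1 stood above the other 3 arrays for TUB2.

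Part of the tubulin probe sets shared a pattern between arrays of the same group. WS replicate 1 was above WS replicate 2, and CCR mutant replicate 2 above CCR mutant replicate 1, in 3 of the 5 alpha-tubulin probe sets (both of tua4, and tua6) and in 7 of the 10 beta-tubulin probe sets. In tua6 the CCR mutant arrays differed by only 0.01, and in tua1 and tua5 WS replicate 1 was the lower WS array. Of all tested probe sets 24.5% had both orders. The beta-tubulin tub3 gives an example, with 10.87 and 11.16 in the CCR mutant and 11.19 and 11.09 in WS. The same orders held in 5 of 5 tested actin cytoskeleton probe sets and in 5 of 5 secondary wall and xylem probe sets. They also held in 12 of 20 photosynthetic leaf probe sets, so the pattern was not limited to the cytoskeleton or the wall. They held in 3 of 10 probe sets of primary wall cellulose synthases and in 0 of 18 of the genes of dividing cells. In tua4 the 2 arrays of a group differed by 0.22 and 0.24 in the CCR mutant and by 0.15 on both probe sets in WS, more than any alpha-tubulin difference between group means.

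**Figure D4:**
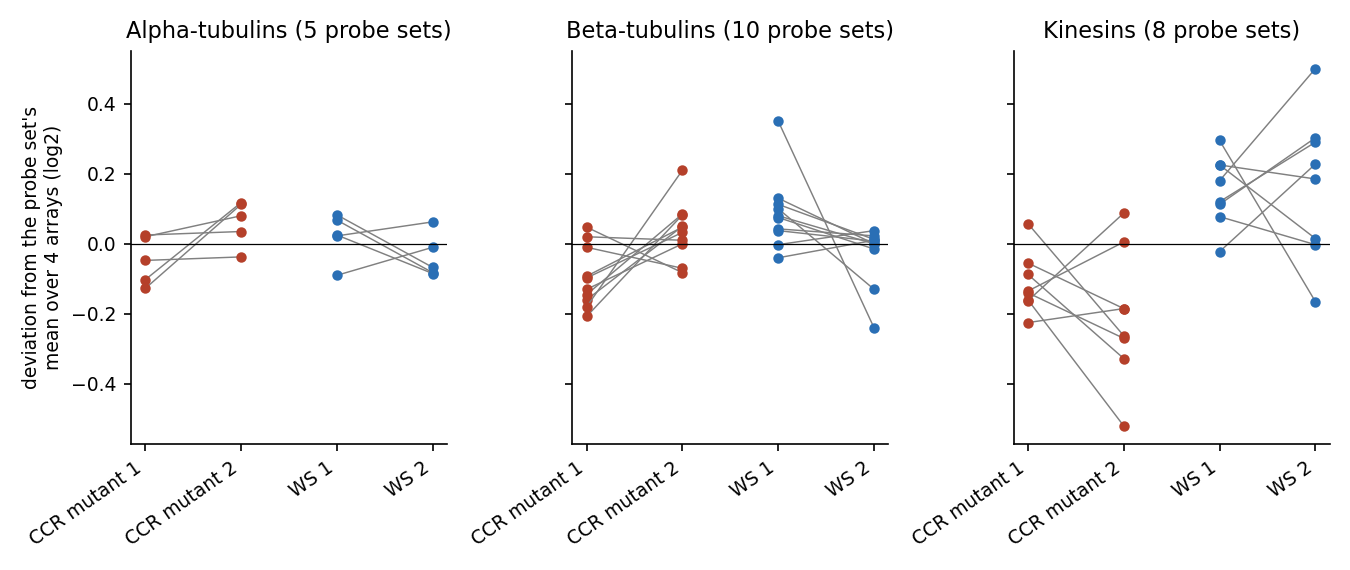
Deviation of each probe set from its own mean over the 4 arrays (vertical axis, log2) by array (horizontal axis), for 5 alpha-tubulin, 10 beta-tubulin and 8 kinesin probe sets. Points are arrays, red for CCR mutant and blue for WS, and grey lines join the 2 arrays of a group. Most tubulin lines go up between the CCR mutant arrays and down between the WS arrays, while most kinesin points are below 0 on the CCR mutant arrays and above 0 on the WS arrays.

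By a rule of likeness, the named genes with the closest array pattern to tua4 (its _a_at probe set) were sought among 245 tested probe sets with a range of at least 0.5. The 5 highest Pearson correlations, over 4 arrays, were those of 3 probe sets of IIG1 (0.970, 0.941 and 0.939), of CesA12 (0.945), a secondary wall cellulose synthase, and of IRL (0.930), an isoflavone reductase-like gene. CesA12 read 9.92 and 10.39 in the CCR mutant and 10.23 and 9.87 in WS. IRL read 9.15 and 9.55 in the CCR mutant and 9.72 and 9.25 in WS. The likeness is in shape and not in size, since the IIG1 probe sets ranged over 1.69 to 1.97 and tua4 over 0.24. With 4 shared arrays such values describe these arrays only.

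Other proteins of the microtubule system were read by 14 probe sets for 11 genes, of which 12 were tested (10 genes). Values were higher in the CCR mutant in 2 and lower in 10, against 36.7% and 61.9% of all tested probe sets. Their median difference was -0.1675, and 0 passed. At an unadjusted p under 0.05 limma called 4 of the 12, against 6.43% of all tested probe sets. CCR mutant and WS arrays stood apart without overlap in 9 of them, with the CCR mutant lower in 7, against 36.5% and 23.5% of all tested probe sets. In this list the gamma-tubulin genes, whose products nucleate microtubules, had small differences: TUBG2 by 0.09 (95% confidence interval -0.15 to 0.33) and tubg1 by between -0.115 and 0.065 on 3 probe sets. The gene tan1, which guides the plane of division in maize, was below background at 2.43 and 2.42 in the CCR mutant and 2.36 and 2.38 in WS.

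All 8 kinesin probe sets, for motor proteins that move along microtubules, were lower in the CCR mutant than in WS by value. Of all tested probe sets 61.9% were lower. The median difference of the kinesins was -0.325, against -0.045 over all tested probe sets. The kinesins were singled out of the list after their values were seen. KIN6 had the smallest p, at 10.55 and 10.59 in the CCR mutant, against 11.00 and 10.96 in WS, a difference of -0.41 (SE 0.07, 95% confidence interval -0.62 to -0.20, limma adjusted p = 0.55). Both of its CCR mutant arrays lay below both WS arrays, and with 1 array left out its difference was between -0.43 and -0.39.

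Among the other kinesins KIN13 read 6.87 and 6.51 in the CCR mutant, against 7.21 and 7.53 in WS, a difference of -0.68 (SE 0.19, limma adjusted p = 0.765). KIN8 differed by -0.415 and kin11 by -0.41, again without overlap. KIN1 differed by -0.24, also without overlap. KIN9, kin15 and kin4 overlapped, so the groups were apart in 5 of the 8, against 36.5% of all tested probe sets. The differences of KIN9 and kin15, -0.075 and -0.13, took the other sign without 1 array. They were 0.05 for KIN9 without CCR mutant replicate 1, and 0.10 for kin15 without WS replicate 1. That of kin4, -0.205, was -0.045 without CCR mutant replicate 2.

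Markers of dividing cells are set beside the kinesins here. Of 18 tested probe sets of that list 14 had lower values in the CCR mutant (median -0.0925), against 61.9% of all tested probe sets, and 0 passed. In 5 of the 18 the groups did not overlap, in each with the CCR mutant lower, against 23.5% of all tested probe sets. The cyclin gene cyc3 had the smallest p, at 6.83 and 6.81 in the CCR mutant, against 7.08 and 7.70 in WS, and differed by -0.57 (SE 0.24, limma adjusted p = 0.789). Another cyclin gene, cyc1, differed by -0.52, but cyc2 differed by -0.095 and cycD2 by -0.08. The 4 probe sets with higher values in the CCR mutant were those of the histone genes H1 (0.115 to 0.17) and his1a (0.025). Averaged over the list, the deviation of an array from each probe set's mean was 0.03 and -0.20 for the CCR mutant arrays, against -0.04 and 0.21 for the WS arrays. For the 8 kinesins it was -0.11 and -0.21 in the CCR mutant, against 0.15 and 0.17 in WS. For the 5 alpha-tubulins it was -0.05 and 0.06 in the CCR mutant, against 0.02 and -0.04 in WS, so their order over the arrays was another one. With bulk tissue, fewer cells of a type and less RNA per cell cannot be told apart, and the part of dividing cells in the kinesin values was not tested.

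Cellulose synthase genes of the primary wall, whose complexes run along microtubules, had 5 higher and 5 lower of 10 probe sets, a median difference of -0.0025 and 0 passed. CesA-3 had the smallest p, with a difference of -0.24 (SE 0.11, limma adjusted p = 0.799). The secondary wall and xylem list, cncr1 included among the lower, had 1 higher and 4 lower of 5 tested probe sets and a median of -0.20. Over all tested probe sets 36.7% were higher and 61.9% lower, with a median of -0.045. The 5 tested actin cytoskeleton probe sets had differences between -0.045 and 0.065. Of these the profilin gene prf5 had the smallest p, with the difference of 0.065. Photosynthetic leaf genes had 17 higher and 3 lower of 20, against 36.7% and 61.9% of all tested probe sets. Their median was 0.09, and the smallest p was that of psad1, a photosystem I subunit gene, which differed by 0.175 (SE 0.13). The 3 tested epidermis and cuticle probe sets differed by between -0.11 and 0.27, with the smallest p for the lipid transfer gene plt2, which differed by 0.255 (SE 0.14). None of these lists held a probe set that passed, and at an unadjusted p under 0.05 limma called only cncr1 among them and none of the dividing cell probe sets.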

How the data were processed

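Log2 values were deposited by the authors as 1 table of 4 arrays that came from GCRMA (per the submitters' processing notes); the version and the base of the logarithm are not given in the sources used here, and log2 was taken from the range of 1.12 to 14.1. GCRMA corrects background by probe base composition and normalizes arrays by quantiles. No value was normalized again.

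Control and reporter probe sets (179) were left out. A probe set was tested if it was at least 4 on at least 2 arrays. limma 3.58.1 (lmFit, eBayes) in R 4.3.3 was fitted to all 11085 such probe sets, unpaired and two-sided, with Benjamini-Hochberg adjustment over all of them. Degrees of freedom were 2 from the residuals and 1.70 from the prior, and the test was tested on simulated data. The 2 arrays per group limit the precision.

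Gene names come from the 2007 platform annotation, updated through RefSeq; 1452 probe sets have 1 gene, 1 has several and 16281 have none here. The members and lists were chosen with earlier results of these data known, and 3 genes were dropped from lists by name (a cyclotide and 2 auxin-binding proteins). The named genes were all alpha-tubulin and beta-tubulin probe sets and the gene with the smallest p of each list discussed. To these came the CCR genes cncr1 and cncr2 and the 5 probe sets most like tua4. Other names were chosen after their values were seen. Alternatives were other filters, variance models, normalizations, probe set choices, a replicate block, a floor at 4 and leaving out each array. No sequence is shown.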

Additional observations from a re-analysis of the deposited data

How the results depend on the processing

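Of the 5 tested alpha-tubulin probe sets 0 passed under any of 14 settings (3 of them were tested where _s_at and _x_at probe sets were left out), with limma adjusted p between 0.468 and 0.995; the smallest unadjusted p was 0.0408, for tua5 with no filter on dim probe sets. Their median difference, 0.015, lay between -0.015 and 0.055 under the other settings and between -0.09 and 0.105 with 1 array left out. Single differences that changed sign were those of tua4: 0.025 with median-centred arrays on the _a_at probe set, and with 1 array left out between -0.135 and 0.105 there and between -0.095 and 0.125 on the _s_at probe set. Among the kinesins, kin15 lay between -0.36 and 0.10 and KIN9 between -0.20 and 0.05 with 1 array left out. The count of all passing probe sets, 17, was 9 with no filter and 0 with any 1 array left out; the cause was not tested. With the replicate number as a block, which the labels do not explain, 0 passed overall and 0 alpha-tubulins, and the alpha-tubulin median stayed at 0.015; same-numbered arrays deviated together with a correlation of 0.348 across probe sets. With 2 arrays per group, alpha-tubulin differences within about 0.23 on the log2 scale, the median half-width of their intervals, could typically not be set apart from 0. This limit varied by probe set. The tua4 intervals were wider, at -0.37 to 0.34 (_a_at) and -0.33 to 0.36 (_s_at), while that of tua5 was -0.29 to 0.12.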

Other observations

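The names of 8 further probe sets begin with the same number as an alpha-tubulin probe set, 7 with that of tua4 and 1 with that of the tua1 pair. The annotation used here gives none of the 8 a gene, so none is called an alpha-tubulin. All 8 were tested and 0 passed. Of the 7 that share the number of tua4, 1 had a higher and 5 had lower values in the CCR mutant, between -0.25 and 0.02, and 1 was equal. The lowest of them read 10.65 and 10.69 in the CCR mutant, against 10.91 and 10.93 in WS, a difference of -0.25 (SE 0.07, 95% confidence interval -0.46 to -0.04, limma adjusted p = 0.772). Its groups did not overlap, and this probe set was singled out after its values were seen.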
